A study of Oryza sativa with 8 samples.

Results

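Chromosome 10 was examined in a japonica rice, cultivar Nipponbare (Nip), and an indica rice, cultivar 93-11, whose nuclei had been profiled by Hi-C, an assay that counts how often pairs of crosslinked DNA stretches are ligated together. Its members were all 50-kb bins and all topologically associating domains (TADs) assigned to chromosome 10, taken in each cultivar by position alone. They came to 471 of 7468 bins in Nip and 511 of 7763 bins in 93-11, and to between 381 and 673 of 8317 to 11911 TADs in a library. In Nip the first 8.2 Mb, with 164 bins, was set against the remaining 307 bins as the short arm against the rest. The place of that border came from the definition of the region and was not checked against a centromere sequence. In 93-11 the first 8.2 Mb, also 164 bins, was used only as a window of equal length, since no border was given for that genome.

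The 4 groups were Nip HS, 93-11 HS, Nip normal and 93-11 normal, with 2 biological replicates each. All libraries were made from the aerial parts of 3-week-old seedlings, a mixture of leaf and stem cell types, grown under light of 800 µmol per square metre per second. HS (heat stress) seedlings were held at 45 °C for 36 h, with a relative humidity above 80% and a dimmer light of 60 to 80 µmol per square metre per second. Whether the normal seedlings had that light and humidity is not stated, so temperature, light and humidity cannot be told apart. Contact counts and depth were not used here. The genome builds are not given in the sources used here, and coordinates below are those of each cultivar's own files, counted from 1.

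Interphase chromosomes fold into 2 kinds of chromatin that prefer contacts with their own kind. The A compartment is generally open, gene-rich and transcribed, whereas the B compartment is generally compact, poor in genes and rich in repeats. The first principal component (PC1) of a chromosome's contact map separates them, with positive scores for A and negative scores for B. TADs are shorter stretches whose DNA meets itself more often than its neighbours, and small ones can be nested within large ones. Heterochromatin is the densely packed chromatin that surrounds plant centromeres, and the short arm of rice chromosome 10 is known from cytology to be heterochromatic along much of its length. No heterochromatin mark was measured here, so the arm is described by PC1, genes and TADs.

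Chromosome 10 was the 2nd shortest of 12 chromosomes in both cultivars, with 23.5 Mb in Nip and 25.5 Mb in 93-11. A PC1 score in all 4 libraries of a cultivar was available for 446 of its bins in Nip and 482 in 93-11. Scores are scaled separately for each chromosome and library, so a change in one stretch is relative to the rest of the chromosome. Replicates had a Pearson's r across these bins of 0.985 (HS) and 0.995 (normal) in Nip and of 0.986 (HS) and 0.994 (normal) in 93-11. Between HS and normal libraries r was 0.961 to 0.967 in Nip and 0.952 to 0.960 in 93-11. These are correlations across neighbouring bins, which are not independent. In TADs one library stood apart, HS replicate 1 of 93-11, whose list for chromosome 10 was the shortest of the 8. Values with and without it are given below for TAD number, TADs per Mb, median TAD size and boundaries. Means and changes of the other TAD measures include it.

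The short arm of Nip lay mostly in B. Of its 154 scored bins, 22.1% and 23.4% were A in the HS libraries and 22.7% and 20.8% in the normal libraries. In the rest of the chromosome, 54.8% and 55.8% of 292 bins were A in the HS libraries and 57.9% and 58.6% in the normal libraries. The arm had the lower share in each library, with a mean over the 4 libraries of 22.2% in the arm and 56.8% in the rest, a difference of -34.5 ± 2.49 points (SD, n = 4). The exact sign-flip permutation test gave a two-sided p of 0.125, the smallest that 4 libraries allow. Mean PC1 over the 4 libraries was -0.0268 ± 0.00265 in the arm and 0.00920 ± 0.000904 in the rest (SD, n = 4).

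The border at 8.2 Mb was not a step between B and A. In 2-Mb windows, the outermost 2 Mb of the short arm had 48.1% A bins as a mean over the 4 Nip libraries, and the share was lower in each window inward, at 27.0%, 10.9% and 2.94%. The minimum lay across the border, from 8 to 10 Mb, where none of 36 scored bins was A in any library. The share then climbed through 14.5%, 25%, 51.3% and 68.6% in the windows between 10 and 18 Mb. From 18 to 20 Mb and from 22 Mb to the end, every scored bin was A in all 4 libraries. Within what is counted as the rest, the stretch from 8.2 to 14 Mb therefore had 13.9% A bins, lower than the short arm, and the stretch from 14 Mb onward had 81.9%. The contrast between the short arm and the rest thus rests on the outer part of the long arm.

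**Figure D1:**
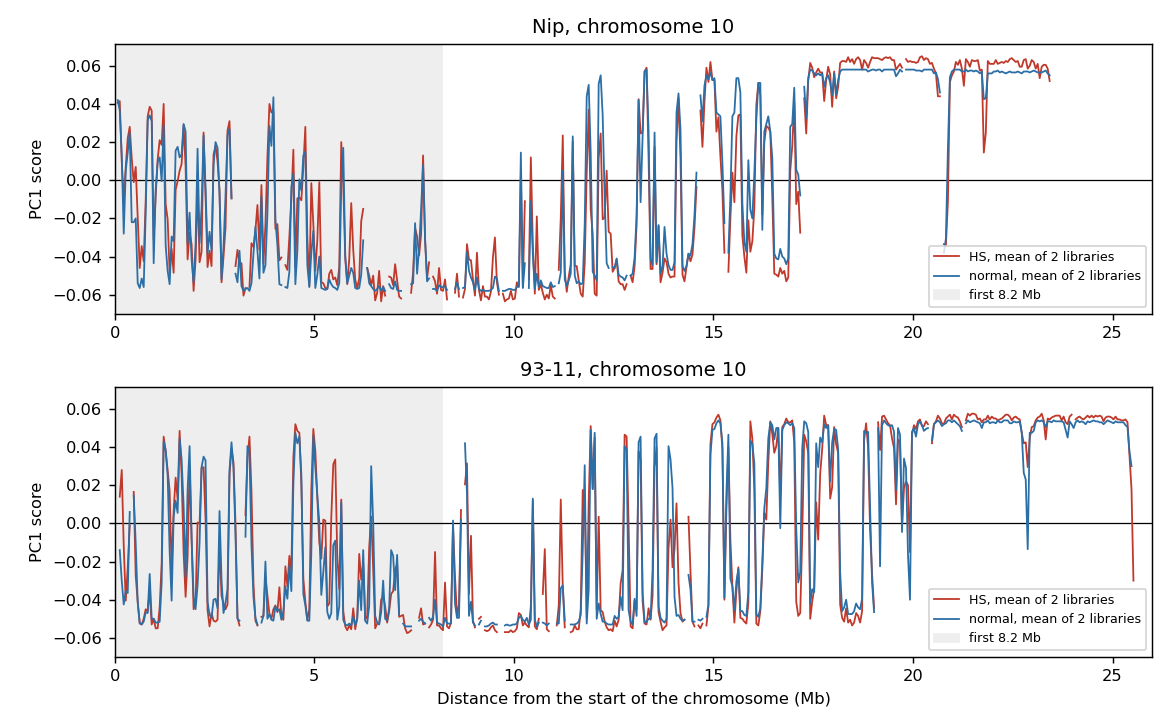
PC1 score (vertical axis, no unit) of each 50-kb bin of chromosome 10 against distance from the start of the chromosome in Mb, with the mean of 2 HS libraries in red and of 2 normal libraries in blue, for Nip (top) and 93-11 (bottom). Grey shading marks the first 8.2 Mb, gaps are bins without a score, and values above 0 are A. B fills the middle of the chromosome, and the outer long arm is a plateau of A.

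The same layout was seen in 93-11. In its first 8.2 Mb, 24.5% and 27.1% of 155 bins were A in the HS libraries and 21.3% and 21.3% in the normal libraries. In the rest, 57.5% and 57.8% of 327 bins were A in the HS libraries and 56.6% and 56.0% in the normal libraries. The first 8.2 Mb stood at -33.4 ± 2.05 points relative to the rest (SD, n = 4, exact sign-flip permutation p = 0.125, two-sided). The windows with the fewest A bins were 6 to 8 Mb, at 3.47%, and 8 to 10 Mb, at 10.3%. From 20 to 22 Mb and beyond 24 Mb every scored bin was A in all 4 libraries.

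The longest unbroken stretches of A lay in the outer long arm, and the longest stretches of B were shorter than these. Among bins called alike in all 4 libraries, Nip had 182 A bins in 28 runs and 230 B bins in 50 runs. The longest A run of Nip spanned chromosome 10 from 20900001 to 23450000, which is 2.55 Mb with 377 genes, or 7.39 per bin. A run of nearly the same length, 2.50 Mb with 340 genes, lay from 17250001 to 19750000. The longest B run, from 8700001 to 9650000, was 0.950 Mb with 69 genes, or 3.63 per bin, and lay on the long arm side of the border. In 93-11 the longest A run was from 21300001 to 22850000, 1.55 Mb with 218 genes, and the longest B run from 3650001 to 4450000, 0.80 Mb with 52 genes. Medians were 125 kb for A runs and 175 kb for B runs in Nip, and 150 kb for both in 93-11.

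Genes followed the same gradient. The methods of the study use the gene annotation to set which side of PC1 is A, so that A bins hold more genes is in part built in. Chromosome 10 held 2415 genes in Nip and 2330 in 93-11, by the number of genes listed per bin. Over scored bins this was 5.23 per bin in Nip, against 5.63 on the other 11 chromosomes, and 4.73 in 93-11, against 5.46. Within Nip, the short arm had 4.16 genes per bin and the rest 5.79. Here too the stretch from 8.2 to 14 Mb was close to the arm, at 4.31, and the stretch beyond 14 Mb was at 6.66. Bins that were A in all 4 Nip libraries held 6.68 genes on average, bins that were B in all 4 held 4.05, and the bins that switched held 5.38. In 93-11 these means were 6.45, 3.30 and 4.79.

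The tie between PC1 and gene number was looser in the short arm. Pearson's r across bins, as a mean over the 4 libraries of Nip, was 0.340 in the arm and 0.484 in the rest, and 0.506 over the whole chromosome. In 93-11 it was 0.33 in the first 8.2 Mb and 0.608 in the rest. All of these bins share their libraries and neighbourhood, the arm spans a narrower range of both measures, and no test was made. A bins of the arm in Nip carried 5.40 genes where the call was A in all 4 libraries, fewer than the 6.89 in the rest.

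Some bins carried no score. There were 25 such bins in Nip, 5.31% of chromosome 10 against 5.76% of the other chromosomes, and 29 in 93-11, 5.68% against 5.75%. Nip had no unscored run of 3 or more bins. 93-11 had 2, from 9600001 to 9750000 with 4 genes and from 10900001 to 11050000 with none. One unscored bin of Nip, from 11050001 to 11100000, was singled out after its value was seen, since it held 24 genes, the highest number of any bin in that genome. No scored bin of chromosome 10 in Nip held more than 13. What these 24 genes are was not analysed here, because the files list numbers of genes and not names.

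Upon HS the mean score of the Nip short arm was closer to A, and that of the rest of the chromosome lower. Mean PC1 of the Nip short arm was -0.0247 and -0.0243 in the HS libraries, against -0.0288 and -0.0293 in the normal libraries. The HS values were the less negative ones and did not overlap with the normal values. The change was 0.00457, with means of -0.0245 ± 0.000257 in HS and -0.0291 ± 0.000326 in normal libraries (SD, n = 2 each). For the rest of the chromosome, mean PC1 was 0.00822 and 0.00864 in HS, against 0.00999 and 0.00995 in normal libraries, again without overlap but in the other direction.

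The gap between the first 8.2 Mb and the rest was narrower in HS in both cultivars. In Nip it was -0.0329 and -0.0330 in the HS libraries, against -0.0388 and -0.0392 in the normal libraries, a change of 0.00611. In 93-11 the gap between the first 8.2 Mb and the rest was -0.0313 and -0.0307 in HS, against -0.0336 and -0.0331 in normal libraries, a change of 0.00235. There mean PC1 was higher in HS in both parts, with -0.0234 and -0.0262 in HS and normal libraries for the first 8.2 Mb and 0.00764 and 0.00715 for the rest. With 2 libraries against 2, the exact permutation test gave a two-sided p of 0.33 for Nip and for 93-11, which is its lowest possible value. Over both cultivars, the 36 relabellings within cultivars gave a permutation p of 0.056, again the smallest possible. Moving the border to 7.2 or 9.2 Mb, or leaving out 1 Mb on each side of it, gave changes of 0.00620, 0.00583 and 0.00652 in Nip. In the number of A bins of the Nip arm the conditions overlapped, at 34 and 36 in HS and 35 and 32 in normal libraries. In 93-11 the HS libraries had 38 and 42 A bins in the first 8.2 Mb, against 33 in both normal libraries.

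The widest changes of Nip lay from 4 to 6 Mb and from 14 to 16 Mb. In Nip the window from 4 to 6 Mb, inside the short arm, had a mean PC1 of -0.0306 and -0.0290 in HS and -0.0371 and -0.0392 in normal libraries, and 31 of its 39 bins were higher in HS. The window from 14 to 16 Mb, in the long arm, had -0.00287 and -0.000526 in HS and 0.00905 and 0.00963 in normal libraries, and 34 of its 38 bins were lower in HS. Its A share was 44.7% and 47.4% in HS and 55.3% and 57.9% in normal libraries. From 16 to 18 Mb the change was -0.00550, and from 0 to 2 Mb it was 0.00518. From 12 to 14 Mb it was -0.004, with 29 of 38 bins lower in HS. Within the A plateau it was 0.00424 from 18 to 20 Mb, with 36 of 39 bins higher in HS. From 22 Mb to the end it was 0.00409. In the all-B window from 8 to 10 Mb the change was 0.000514.

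93-11 had a comparable pair of windows. From 4 to 6 Mb its mean PC1 was -0.0140 and -0.0138 in HS, against -0.0224 and -0.0237 in normal libraries, with 31 of 40 bins higher in HS. From 16 to 18 Mb it was 0.0151 and 0.0149 in HS, against 0.0239 and 0.0235 in normal libraries, with 27 of 40 bins lower. Windows between 8 and 16 Mb differed in direction, with changes of 0.00201 from 8 to 10 Mb, 0.00425 from 10 to 12 Mb, -0.00193 from 12 to 14 Mb and 0.00350 from 14 to 16 Mb, and the window from 6 to 8 Mb changed by -0.00114. The window from 22 to 24 Mb, within the plateau, changed by 0.00376, with 36 of 40 bins higher. Positions in the 2 genomes were not aligned to each other, so windows of the same number need not hold the same sequence. For each single window the exact permutation p was 0.33 or more.

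**Figure D2:**
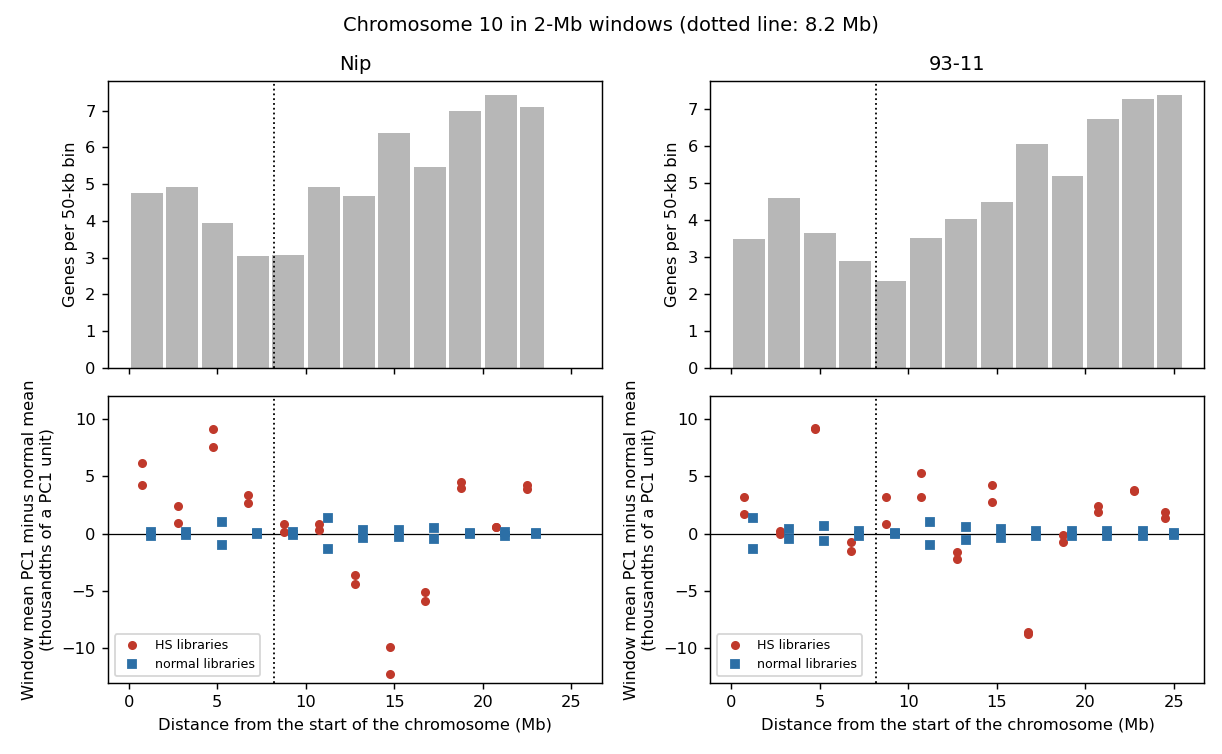
Chromosome 10 of Nip (left) and 93-11 (right) in 2-Mb windows against distance from the start of the chromosome in Mb, with a dotted line at 8.2 Mb. The upper panels show genes per 50-kb bin, which are fewest between 6 and 10 Mb, and the lower panels show each library's mean PC1 minus the mean of the normal libraries, in thousandths, with HS as red circles and normal as blue squares. Among other windows, HS libraries lie above the normal ones from 4 to 6 Mb in both cultivars. They lie below them from 12 to 18 Mb in Nip and from 16 to 18 Mb in 93-11.

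PC1 was also tested bin by bin with limma, adjusted by the Benjamini-Hochberg method over all bins of a cultivar. In Nip, 11 bins of chromosome 10 were higher in HS and 5 lower at an adjusted p below 0.05, which is 16 of 446 or 3.59%. Over the whole genome 3.75% of bins were called, 1.86% higher and 1.89% lower, so the share on chromosome 10 was at the background. In 93-11, 9 bins were higher and 9 lower, 18 of 482 or 3.73%, against 2.65% of the genome, with 1.86% higher and 0.793% lower. The short arm of Nip held 5 of the higher and 2 of the lower bins, 3.25% and 1.30% of its 154 scored bins. In 93-11 the first 8.2 Mb held 4 of the higher bins, 2.58% of 155, and none of the lower bins. At an unadjusted limma p below 0.05 the whole chromosome had 206 bins in Nip, 46.2%, and 204 in 93-11, 42.3%. The genome's share at that threshold is not given here.

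The calls changed when a library was left out. In Nip no bin of the genome was called by limma without HS replicate 1, normal replicate 1 or normal replicate 2. Chromosome 10 then had 245, 70 and 62 bins at an unadjusted limma p below 0.05. Without HS replicate 2, 44 bins were called there, of 447 in the genome. In 93-11 none was called in the genome without either normal replicate, with 80 and 83 on chromosome 10 at an unadjusted limma p below 0.05. Without HS replicate 2 of 93-11, 4 were called on chromosome 10, of 24 in the genome. The split by direction also depended on scaling. With PC1 centred on each chromosome's median, 15 bins were higher and 36 lower in Nip and 20 higher and 309 lower in 93-11. Over the genome that setting called 1078 of 7040 bins in Nip and 2841 of 7317 in 93-11. Quantile normalization gave 8 higher and 6 lower on chromosome 10 of Nip, with 181 called in the genome.

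The 5 called bins with the largest change in Nip were mixed in direction. The bin from 12300001 to 12350000, with 6 genes, had PC1 of 0.008 and 0.002 in HS and -0.042 and -0.045 in normal libraries, a limma estimate of 0.0486 ± 0.00275 (SE, adjusted p = 0.037), and moved from B to A. The bin from 10250001 to 10300000, with 4 genes, had -0.008 and -0.014 in HS and -0.042 and -0.045 in normal libraries and stayed in B. In the short arm, the bin from 3800001 to 3850000, with 3 genes, had 0.012 in both HS libraries and -0.021 and -0.014 in the normal libraries. Also in the short arm, the bin from 6150001 to 6200000, with 3 genes, had -0.018 and -0.025 in HS and -0.049 and -0.050 in normal libraries. The bin from 15550001 to 15600000, with 6 genes, was the one of the 5 that fell, with 0.021 and 0.025 in HS against 0.053 and 0.054 in normal libraries.

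In 93-11 the largest change was close to the chromosome's start. The bin from 150001 to 200000, with 2 genes, had PC1 of 0.027 and 0.029 in HS and -0.032 and -0.028 in normal libraries, a limma estimate of 0.0580 ± 0.00185 (SE, adjusted p = 0.020). The bin from 5400001 to 5450000, with 1 gene, had 0.005 and 0.001 in HS and -0.047 in both normal libraries. Higher in HS as well was the bin from 12850001 to 12900000, with 2 genes, at 0.002 and -0.005 against -0.042 and -0.049 in normal libraries. Those that fell were the bin from 13850001 to 13900000, with 4 genes, at -0.009 and -0.017 in HS against 0.044 and 0.037 in normal libraries, and the bin from 17200001 to 17250000, with 9 genes, at -0.009 and -0.004 against 0.039 and 0.040. Next to this last bin, 3 neighbours between 17050001 and 17200000, with 23 genes, were also called and also fell.

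A bin was counted as switching where the HS replicates had one call and the normal replicates the opposite one. On chromosome 10 of Nip, 10 bins went to B in HS and 6 to A, which is 16 of 446 or 3.59%, against 2.09% of the genome, with 1.04% to B and 1.05% to A. On that of 93-11, 8 went to B and 16 to A, 24 of 482 or 4.98%, against 2.50% of the genome, with 0.793% to B and 1.71% to A. Chromosome 10 ranked 2nd of 12 in Nip and 1st in 93-11 by the share of switching bins, and the other chromosomes ranged from 0.571% to 4.39% and from 0.812% to 4.52%. In mean absolute PC1 change, counted in SD of PC1, it ranked 3rd and 4th. The rank was a description and was not tested.

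In Nip the directions differed between the short arm and the rest, though the arm had few switching bins. In the short arm 1 bin went to B and 3 to A, 0.649% and 1.95% of 154. In the rest 9 went to B and 3 to A, 3.08% and 1.03% of 292, against 1.04% and 1.05% of the genome. Of those 9, 6 bins lay between 15200001 and 17150000, within the stretch of the long arm where window means of PC1 were lower in HS. In 93-11 more bins went to A than to B in both parts. The first 8.2 Mb had 3 bins that went to B and 9 that went to A, 1.94% and 5.81% of 155. The rest had 5 and 7, 1.53% and 2.14% of 327, against 0.793% and 1.71% of the genome. Whether the arm and the rest differ in direction was not tested. With PC1 centred on each chromosome's median, which moves calls near 0, 6 bins went to B and 5 to A in Nip, and 10 and 9 in 93-11.

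Most switching bins stood alone, 14 of 16 in Nip and 19 of 24 in 93-11. The only longer run of Nip, from 17050001 to 17150000 with 9 genes, went from A to B and had a mean PC1 of -0.0125 and -0.006 in HS and 0.003 and 0.0055 in normal libraries. In 93-11 the run from 100001 to 200000, with 6 genes, went from B to A, at 0.027 and 0.015 in HS and -0.0275 and -0.0165 in normal libraries. The other, from 5400001 to 5550000 with 12 genes, went from B to A too and had 0.0237 and 0.0213 in HS, against -0.0207 and -0.0243 in normal libraries. When each library had to pass an absolute PC1 of 0.25 SD, 2 switching bins were counted in Nip and 3 in 93-11. The genome's share under this rule, or with centred PC1, is not given here. Whether chromosome 10 exceeds the genome under them is therefore not known.

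The share of A bins on the chromosome moved in opposite directions in the 2 cultivars. In Nip it was 43.5% and 44.6% in HS, against 45.7% and 45.5% in normal libraries, a change of -1.57 percentage points. In 93-11 it was 46.9% and 47.9% in HS, against 45.2% and 44.8% in normal libraries, a change of 2.39 points. HS and normal libraries did not overlap in either cultivar, and the exact permutation p was 0.33 in each. On bins with an absolute PC1 of at least 0.25 SD the change was -0.67 points in Nip, where the conditions then overlapped, and 2.07 points in 93-11. On the other chromosomes the A share was 50.3% in HS and 50.1% in normal libraries of Nip, and 50.3% and 49.1% in those of 93-11.

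Chromosome 10 had fewer A bins than the rest of the genome in every library. The difference was -6.94 and -5.61 points in Nip HS, -4.26 and -4.70 points in Nip normal, -3.34 and -2.46 points in 93-11 HS and -4.00 and -4.11 points in 93-11 normal libraries. The exact sign-flip permutation p was 0.125 in each cultivar. By mean A share it ranked 11th of 12 chromosomes in both.

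TAD numbers of chromosome 10 did not separate HS from normal libraries. In Nip it held 611 and 510 TADs in the HS libraries, against 532 and 507 in the normal libraries. In 93-11 it held 381 and 673 in the HS libraries, against 514 and 553 in the normal libraries. The HS libraries thus overlapped with the normal ones or lay on both sides of them, with an exact permutation p of 0.67 in Nip and 1 in 93-11. On the other 11 chromosomes together, HS libraries had 10662 and 11401 TADs in Nip, against 8235 and 8196 in normal libraries, and 11271 and 11039 in 93-11, against 8017 and 7764. Taken singly, chromosome 11 of Nip overlapped too, with 517 and 931 TADs in HS against 610 and 615 in normal libraries, as did chromosome 8 of 93-11, with 622 and 837 against 620 and 628.

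Counted per Mb, chromosome 10 had fewer TADs in HS than the other 11 chromosomes together, but not than each of them. In Nip HS replicate 1 it had 611 TADs over 23.5 Mb. Chromosome 11 had 517 over 28.8 Mb there, and chromosome 12 had 577 over 27.5 Mb. In 93-11 HS replicate 2 chromosome 10 had 673 over 25.5 Mb. Among the lower ones there were chromosome 6, with 769 over 32.1 Mb, and chromosome 9, with 552 over 24.3 Mb. In the other HS library of each cultivar no single chromosome was lower. The ratio of mean TAD number in HS to that in normal libraries was 1.08 on chromosome 10 of Nip and 0.988 on that of 93-11, the lowest of 12 chromosomes in both cultivars. The other chromosomes ranged from 1.18 to 1.55 in Nip and from 1.17 to 2.00 in 93-11. The rank depended on 1 HS library in each cultivar, as leaving out libraries showed, a check chosen after the data were seen. Without HS replicate 2 of Nip the ratio was 1.18 and ranked 3rd from the lowest, with chromosome 11 lowest at 0.844. Without HS replicate 1 of 93-11 it was 1.26 and ranked 3rd from the lowest, with chromosome 6 lowest at 1.09. Without any other single library chromosome 10 was lowest. Chromosome 10 minus the other chromosomes was -4.52 and -10.9 TADs per Mb in Nip HS libraries, against -0.937 and -1.89 in Nip normal libraries. In 93-11 it was -16.2 and -4.12 per Mb in HS, against -2.00 and 0.221 in normal libraries. Conditions did not overlap in either cultivar, at an exact permutation p of 0.33 in each and of 0.056 over the 36 relabellings of both.

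The HS replicates differed from each other on this chromosome, most in 93-11. In 93-11 HS replicate 2 had 1.77 times as many TADs as HS replicate 1, the widest gap of the 12 chromosomes, where the other chromosomes ranged from 1.02 to 1.35. The gap lay along the whole chromosome and was widest from 8 to 10 Mb, with 16 and 47 TADs in HS and 43 and 33 in normal libraries. In Nip the HS replicates differed by 1.2 times, the 3rd widest, and the normal replicates by 1.05. Without HS replicate 1 the change in TAD number became 139.5 in 93-11, in place of -6.50, and -9.50 in Nip, in place of 41.0. Without HS replicate 2 it was -152.5 in 93-11 and 91.5 in Nip. The deficit against the other chromosomes kept its sign, at -3.23 per Mb without HS replicate 1 and -15.3 without HS replicate 2 in 93-11.

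**Figure D3:**
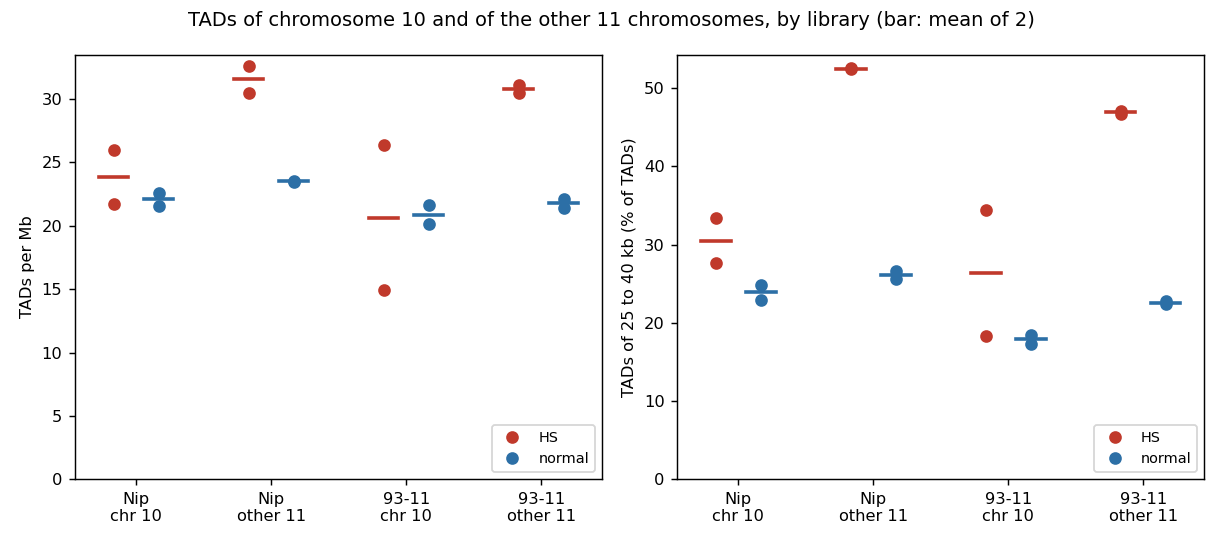
TADs per Mb (left) and the share of TADs of 25 to 40 kb (right, percent of TADs) on chromosome 10 and on the other 11 chromosomes, with 1 point per library and a bar at the mean of 2. HS (red) is left of normal (blue) within each pair. On the other chromosomes the HS libraries lie well above the normal ones in both panels, while on chromosome 10 they lie near or across them.

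Small TADs were a smaller share of the list on chromosome 10 in HS than on the other 11 chromosomes together. No share is given for each of those chromosomes. TADs of 25 to 40 kb, the smallest in the lists, made up 33.4% and 27.6% of those on chromosome 10 in Nip HS libraries, against 22.9% and 24.9% in normal libraries. In 93-11 they made up 18.4% and 34.5% in HS, against 17.3% and 18.4% in normal libraries. On the other chromosomes the means were 52.5% in HS and 26.1% in normal libraries of Nip, and 46.9% and 22.5% in those of 93-11. The change upon HS on chromosome 10 minus that on the other chromosomes was -19.8 percentage points in Nip and -15.8 points in 93-11, without overlap of the conditions (permutation p = 0.056 over 36 relabellings).

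Median TAD size was 55 and 70 kb in Nip HS libraries, against 70 and 75 kb in normal libraries, and 90 and 55 kb in 93-11 HS libraries, against 85 and 80 kb. Conditions overlapped in both. Over TADs of all levels, those of the Nip short arm had a larger median than those of the rest in each library. In HS it was 60 and 75 kb in the arm and 55 and 70 kb in the rest. In normal libraries it was 85 and 90 kb in the arm and 65 and 70 kb in the rest. The arm's surplus was therefore 5 kb in both HS and 20 kb in both normal libraries. For outermost TADs alone the direction was the opposite in HS replicate 2, with 112.5 kb in the arm and 120 kb in the rest. In 93-11 the surplus of the first 8.2 Mb was 0 kb in both HS libraries and 20 and 5 kb in the normal libraries. The change of the surplus was -15.0 kb in Nip and -12.5 kb in 93-11 (permutation p = 0.056 over 36 relabellings). TAD density did not tell the arm from the rest, at 22.9 ± 2.65 and 23.0 ± 2.03 TADs per Mb (SD, n = 4, exact sign-flip permutation p = 0.88).

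By compartment, among bins called alike in all 4 libraries, TADs centred in B were longer than those centred in A in the normal libraries, with medians of 90 and 90 kb in B and 65 and 60 kb in A in Nip. In HS they were 55 and 82.5 kb in B and 55 and 62.5 kb in A.

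Nesting was shallower in HS. TADs at level 2 or deeper, that is inside at least 2 larger ones, were 22.6% and 27.8% of TADs in Nip HS libraries, against 35.5% and 38.1% in normal libraries. In 93-11 they were 23.9% and 25.9% in HS, against 42.6% and 43.0% in normal libraries. Outermost TADs were more numerous in HS, at 205 and 163 in Nip against 151 and 144 in normal libraries, and at 135 and 213 in 93-11 against 114 and 126. For both measures the conditions did not overlap in either cultivar, and the permutation p over 36 relabellings was 0.056. The other chromosomes had the same directions, with 21.5% at level 2 or deeper in HS and 35.4% in normal libraries of Nip, and 25.1% and 36.0% in those of 93-11. In the Nip short arm the share was 27.2% and 33.0% in HS, against 46.7% and 49.1% in normal libraries, and was higher than in the rest of the chromosome in each of the 4 libraries. This did not hold in 93-11, where the first 8.2 Mb minus the rest was -9.30 and 2.62 points in HS and -3.46 and 2.55 points in normal libraries.

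Outermost TADs covered less of the chromosome in HS, by a smaller margin than on the other 11 chromosomes together. Coverage of each of those chromosomes is not given. Coverage was 94.1% and 95.0% in Nip HS libraries, against 97.9% and 98.4% in normal libraries, and 96.5% and 93.5% in 93-11 HS libraries, against 98.6% and 98.8%. On the other chromosomes it was 88.5% in HS and 97.9% in normal libraries of Nip, and 90.7% and 97.8% in those of 93-11. The change upon HS was 5.84 percentage points less negative on chromosome 10 in Nip and 3.42 points in 93-11, with conditions apart in both (permutation p = 0.056 over 36 relabellings).

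The largest outermost TADs lay mostly around the B-rich middle. In Nip HS replicate 1 they spanned chromosome 10 from 10175001 to 10665000, from 7725001 to 8175000 and from 16545001 to 16900000. In HS replicate 2 they spanned 7735001 to 8340000, 8530001 to 9055000 and 10135001 to 10580000. In normal replicate 1 the 3 largest were 7760001 to 8355000, 6710001 to 7290000 and 9425001 to 10005000, and in normal replicate 2 they were 19550001 to 20160000, 9420001 to 10015000 and 15290001 to 15875000. A TAD beginning between 7725001 and 7760001 was thus among the 3 largest in 3 of the 4 Nip libraries. Its length was 450 and 605 kb in HS replicates 1 and 2 and 595 kb in normal replicate 1, and it passed the short arm border in HS replicate 2 and normal replicate 1 but not in HS replicate 1.

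The 93-11 lists had most of their largest TADs in the same kind of place, with exceptions in normal replicate 1 and HS replicate 2. HS replicate 1 had TADs of 635 kb from 6085001 to 6720000, of 635 kb from 12025001 to 12660000 and of 630 kb from 13945001 to 14575000. In HS replicate 2 the largest were 645 kb from 7410001 to 8055000, 530 kb from 5175001 to 5705000 and 370 kb from 14025001 to 14395000. The one of 530 kb held the run from 5400001 to 5550000, which was A in both HS libraries. Normal replicate 1 had 630 kb from 9165001 to 9795000, 615 kb from 18145001 to 18760000 and 615 kb from 21580001 to 22195000. In normal replicate 2 they were 625 kb from 9165001 to 9790000, 620 kb from 7425001 to 8045000 and 615 kb from 10850001 to 11465000. None of these domains had the same start in both HS replicates of 93-11, whereas one starting at 9165001 was among the 3 largest in both normal replicates.

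Boundaries of TADs were lost on chromosome 10 more often than elsewhere. A boundary counted as lost where both normal replicates had it and neither HS replicate did, within 5 kb, and as gained in the opposite case. In Nip 64 of 246 boundaries were lost, 26%, against 13.7% over the whole genome and 13% on the other chromosomes. In 93-11 75 of 202 were lost, 37.1%, against 19.0% over the whole genome and 17.9% on the other chromosomes. Gains within 5 kb over all levels were at the background. They were 71 of 205 in Nip, 34.6% against 34.7% of the genome, and 57 of 133 in 93-11, 42.9% against 41.7%. For level 0 boundaries alone the share gained in Nip was below that of the other chromosomes, at 36.6% against 49.2%. The short arm of Nip lost 24 of 65, or 36.9%, and the rest 40 of 181, or 22.1%. In 93-11 the first 8.2 Mb lost 26 of 56, or 46.4%, and the rest 49 of 146, or 33.6%. These shares are counts over boundaries of the same libraries, and no test was made between regions. The other chromosomes were pooled, and no share is given for each. HS lists were also sparser on chromosome 10, with means of 23.8 against 31.6 TADs per Mb in Nip and 20.6 against 30.8 in 93-11. A sparser HS list offers fewer boundaries for a match within 5 kb, and how much of the loss this makes up was not tested.

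The counts depend on which libraries enter, because a boundary has to be found in each of them. Without HS replicate 1 or HS replicate 2, losses in Nip were 112 and 110 of 246, and without normal replicate 1 or 2 they were 114 of 377 and 129 of 390. In 93-11 losses were 137 of 202 without HS replicate 2, the library with the longer list, 154 of 380 without normal replicate 1 and 150 of 356 without normal replicate 2. Gains in Nip were 157 of 409 without HS replicate 1 and 230 of 486 without HS replicate 2, and in 93-11 281 of 530 and 148 of 297. In each of these 8 omissions the share lost was higher on chromosome 10 than on the other chromosomes, for instance 45.5% against 27.6% without HS replicate 1 of Nip and 50.5% against 38.0% without HS replicate 1 of 93-11.

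**Figure D4:**
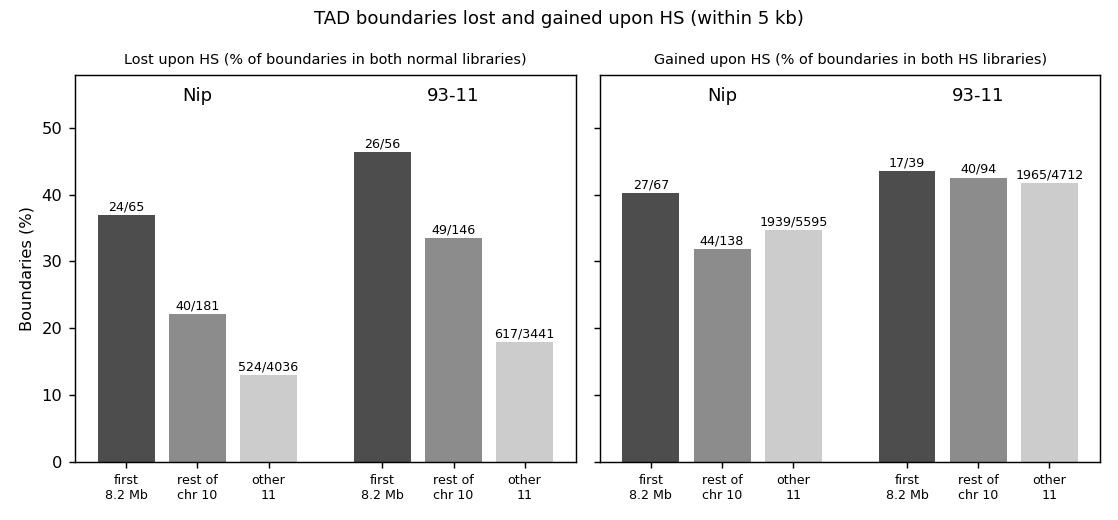
TAD boundaries lost (left, percent of those in both normal libraries) and gained (right, percent of those in both HS libraries) upon HS, for the first 8.2 Mb, the rest of chromosome 10 and the other 11 chromosomes in Nip and 93-11, with the counts above the bars. Losses are most frequent in the first 8.2 Mb, at 36.9% and 46.4%, and least frequent on the other chromosomes, at 13% and 17.9%.

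Few boundaries held one position throughout. At exactly the same 5-kb position in all 4 libraries there were 20 in Nip, 2 of them in the short arm, and 9 in 93-11, 1 of them in the first 8.2 Mb. In Nip the libraries listed 486 and 409 boundaries in HS and 390 and 377 in normal seedlings, and in 93-11 297 and 530 in HS and 356 and 380 in normal seedlings.

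Whole TADs were found again less often between HS replicates than between normal replicates. With a TAD counted as found if it and a TAD of the other library covered each other to at least 80%, the share found between HS replicates was 27.1% in Nip and 14.8% in 93-11, as the mean of both directions. Between normal replicates it was 49.3% and 45.2%. On the other chromosomes these shares were 32.0% and 26.9% between HS replicates and 52.2% and 47.8% between normal replicates. HS TADs of chromosome 10 in 93-11 were thus found less often in the other HS replicate than in the normal libraries, where the share was 23.6%.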

How the data were processed

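Hi-C files of 8 libraries, 2 per group, were analysed, 1 compartment file and 1 TAD list per library. According to the methods and the submitters' processing notes, the authors trimmed reads (cutadapt 1.0), mapped them and removed duplicate and ambiguous pairs within HiC-Pro 2.8.1. The methods name Bowtie2 as the mapper and the notes BWA. The deposited PC1 score per 50-kb bin had been rounded by the authors to 3 decimals, and the deposited gene number is a whole-number count for each bin, whose annotation is not given in the sources used here. The deposited TAD lists give start, end and nesting level on a 5-kb grid. The methods describe a TAD caller without nesting and PC1 at a coarser resolution, so the tools behind these files are not given in the sources used here. Contact counts were not used, so the depth behind each value is unknown here and intervals that need it are left out.

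A bin was A where PC1 was above 0 and B otherwise, and only bins scored in each of a cultivar's 4 libraries entered a comparison. Positions were converted to counting from 1. limma 3.58.1 in R 4.3.3 compared HS with normal per bin over all bins of a cultivar, on values with random digits added within the rounding step (median adjusted p of 21 draws, Benjamini-Hochberg, threshold 0.05). Tested on simulated data with 200 changed bins, it recovered 46.0% of PC1 changes of 0.015 and 73.0% of 0.03 among 7040 Nip bins, with 4.03% false calls. Among 7317 bins of 93-11 it recovered 66.0% and 91.0%, with 4.27% false calls. The simulated spread came from the fit itself, was alike in HS and normal libraries and was independent between bins. On chromosome 10 the mean absolute difference between replicates was 0.117 SD of PC1 in HS and 0.0573 SD in normal libraries of Nip. In 93-11 it was 0.101 and 0.0556 SD. The false-call shares therefore need not hold for the real data. Values per library were compared by exact two-sided permutation tests, whose smallest p is 0.33 for 2 against 2 libraries, 0.056 for 36 relabellings within both cultivars and 0.125 for sign flips over 4 libraries. The tests between regions and conditions were many and their p-values were not adjusted, except those of limma. A TAD was placed by its midpoint.

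Bins and TADs named were every switching run of 2 or more bins, the 5 called bins with the largest change, the 3 largest outermost TADs of each library, the longest A and B run shared by 4 libraries, with a few further runs given for comparison, and unscored runs of 3 or more bins. Genes were not named, since no annotation of the files' builds was used here. The members, lists and tests were chosen with earlier results of these data known. Alternatives were other scalings of PC1, other call rules, TAD levels, tolerances and arm borders, a replicate block, and leaving out each library.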

Additional observations from a re-analysis of the deposited data

Results flagged for a closer look

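Of 24 measures compared between the cultivars on chromosome 10, 3 moved in opposite directions upon HS, with every HS library of a cultivar on one side of its normal libraries. The A share of the whole chromosome changed by -1.57 percentage points in Nip and by 2.39 points in 93-11, which differ by -3.96 points. In the rest of the chromosome, outside the first 8.2 Mb, it changed by -2.91 points in Nip and by 1.38 points in 93-11, which differ by -4.29 points. Mean PC1 of that rest changed by -0.00154 in Nip and 0.000491 in 93-11, a difference of -0.00203. For each of the 3 differences between cultivars the 36 relabellings gave a permutation p of 0.056, the smallest possible. That outcome was fixed in advance, because the 3 measures were chosen for conditions that did not overlap and moved in opposite directions. It is therefore no test of the difference, and the 3 measures are computed from the same bins.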

How the results depend on the processing

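Contact counts and sequencing depth were not used here, so what depth limits was not assessed. With 2 libraries per group no permutation test could pass 0.05. Over 39 results and 226 values under an alternative, 8 values changed direction and 39 counts or values moved. In the limma fit, 16 bins were called in Nip and 18 in 93-11. Values as deposited gave 80 and 88 bins, of 981 and 1249 called in the genome. PC1 centred on the chromosome median gave 51 and 329, of 1078 and 2841. The replicate block left none, with 176 and 150 bins at an unadjusted p below 0.05. Same-numbered libraries were not correlated in their deviations (r = 0.018 in Nip and 0.014 in 93-11), so the numbers were not taken to pair them. Leaving out 1 library gave 0 to 44 bins in Nip and 0 to 12 in 93-11. Switching bins, 16 and 24, were 2 and 3 with an absolute PC1 of at least 0.25 SD, and when single bins were left out they were 2 and 5. Leaving out 1 library gave 19 to 23 and 25 to 33. The genome's share of switching bins is not given here for these alternatives.

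The HS change in TAD number, -6.50 in 93-11, was 54 for outermost TADs and 14.5 for innermost TADs, and ranged from -152.5 to 139.5 without 1 library. It was positive without HS replicate 1 and, at 13, without normal replicate 2. In Nip it ranged from -9.50, without HS replicate 1, to 91.5. The change in median TAD size, -10.0 kb in both, was 2.50 kb for outermost TADs in Nip, ranged from -17.5 to -2.50 kb in Nip without 1 library, and from -27.5 to 7.50 kb in 93-11, where it was positive without HS replicate 2. The short arm minus the rest in TADs per Mb, -0.0509, ranged from -0.787 to 0.791 and was positive without normal replicate 2. The cause of these reversals was not tested.

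Boundaries lost in Nip, 64, were 37 within 10 kb (13.6%, against 5.31% on the other chromosomes) and 26 at level 0 (27.1% against 19.0%), and 110 to 129 without 1 library. In 93-11, 75 lost became 22 at level 0 (39.3% against 26.8%), and 102 to 154 without 1 library. Boundaries gained, 71 in Nip, were 30 at level 0 (36.6%, against 49.2% on the other chromosomes) and 54 within 10 kb (20.5% against 27.7%). At the same position they were 61 (59.8% against 56.9%), and without 1 library 94 to 230. In 93-11, 57 gained became 24 at the same position (55.8% against 64.5%) and 55 within 10 kb (29.4% against 32.6%). At level 0 they were 28 (56% against 53.8%), and without 1 library 70 to 281. Level 0 lists and a stricter or wider tolerance change how many boundaries enter.

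Genes per bin in the short arm minus the rest, -1.63, were -1.33 with the border at 7.2 Mb, -2.10 at 9.2 Mb and -1.72 without 1 Mb on each side. Chromosome 10 minus the others in genes per bin was -0.401 in Nip and -0.725 in 93-11, and -0.336 and -0.643 with equal weight for each chromosome. The other 23 results kept their direction under each alternative. With 2 libraries per group their permutation tests could not pass 0.05 under any setting, so only direction and size can be compared. Among them were the short arm minus the rest in A share (-40.2 to -30.0 points), the narrower gap in mean PC1 in HS (0.00583 to 0.00652) and the HS change in TADs per Mb against the other chromosomes, which without 1 library ranged from -9.52 to -3.11 per Mb in Nip and from -15.3 to -3.23 per Mb in 93-11.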
